A study of Mus musculus with 12 samples.

Results

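The surfactant proteins and the alveolar type 2 genes that work beside them were followed in 12 RNA-seq libraries of newborn mouse lung and liver. They were chosen by gene symbol and comprise 10 of the 24421 genes in the count tables, namely *Sftpa1*, *Sftpd*, *Sftpb*, *Sftpc*, *Napsa*, *Abca3*, *Lamp3*, *Lpcat1*, *Slc34a2* and *Etv5*. All 10 were found, and all 10 passed the filter on low counts in lung. WT (*Man1a2*+/+) and null (*Man1a2*-/-) pups were compared, with 3 liver and 3 lung libraries for each genotype. The null pups carry the *Man1a2*tm1.1Ahe allele, a deletion of exon 2 that is present in every cell from conception, so that no cell type was targeted. *Man1a2* encodes a Golgi mannosidase that trims the N-linked glycans of maturing glycoproteins. Tissue was taken from newborns within an hour of birth. Null pups of this strain die of respiratory failure with poorly expanded alveoli, but the state of the sequenced pups is not described. Sex, litter and the time that each pup breathed were not given in the sources used here. The WT and null pups carried no other named allele or treatment.

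Alveolar type 2 cells make pulmonary surfactant, the film of phospholipid and protein that lowers surface tension at the air-liquid interface and keeps alveoli from collapsing after birth. The hydrophobic proteins SP-B and SP-C spread the lipid film, while the collectins SP-A and SP-D are secreted glycoproteins that bind carbohydrates on microbes and take part in surfactant turnover. Lipid and hydrophobic proteins are stored in lamellar bodies, lysosome-related organelles whose membrane holds the lipid pump ABCA3 and the glycoprotein LAMP3.

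The genes lie at the following positions in the GENCODE M21 annotation of GRCm38. *Sftpa1* (chr14:41131782-41136452) and *Sftpd* (chr14:41172214-41185149) are neighbours on chromosome 14, which also holds *Sftpc* (chr14:70520949-70524081). *Sftpb* lies at chr6:72304610-72314371, *Napsa* at chr7:44572380-44586862 and *Abca3* at chr17:24351950-24410201. *Lamp3* (chr16:19653378-19706375) and *Etv5* (chr16:22381309-22439719) are both on chromosome 16, *Lpcat1* lies at chr13:73467197-73516422 and *Slc34a2* at chr5:53038081-53071664. An exon of *Abca3* overlaps the antisense gene *D330041H03Rik* and one of *Napsa* overlaps *Gm15396*, so the counts of *Abca3* and *Napsa* are uncertain to that extent, since the strand setting of the counting was not given.

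Promoter sequence is shown for the 3 genes that passed the test between null and WT lung and for *Sftpb*, whose genotypes did not overlap in lung. Each run is the 250 bases before a RefSeq start site on GRCm38.p6, written 5′ to 3′ along the gene, and RefSeq held such a window for 7 of the 10 genes. Capitals mark the letters CTCAAG, the core of sites bound by NKX2-1, and TATAA, the core of a TATA box, both searched on both strands and chosen after the sequences had been seen.
*Sftpa1* (chr14:41131538-41131787, plus strand): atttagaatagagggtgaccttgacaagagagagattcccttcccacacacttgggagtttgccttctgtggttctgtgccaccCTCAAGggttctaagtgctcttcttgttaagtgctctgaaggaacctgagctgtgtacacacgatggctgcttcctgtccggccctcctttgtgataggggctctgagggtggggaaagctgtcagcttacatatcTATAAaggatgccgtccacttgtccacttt
*Sftpb* (chr6:72304360-72304609, plus strand): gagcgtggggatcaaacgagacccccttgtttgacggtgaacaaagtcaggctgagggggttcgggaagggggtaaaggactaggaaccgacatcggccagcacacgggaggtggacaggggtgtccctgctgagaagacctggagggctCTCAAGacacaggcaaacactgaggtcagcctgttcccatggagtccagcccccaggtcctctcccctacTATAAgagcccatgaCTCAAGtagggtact
*Lpcat1* (chr13:73466981-73467230, plus strand): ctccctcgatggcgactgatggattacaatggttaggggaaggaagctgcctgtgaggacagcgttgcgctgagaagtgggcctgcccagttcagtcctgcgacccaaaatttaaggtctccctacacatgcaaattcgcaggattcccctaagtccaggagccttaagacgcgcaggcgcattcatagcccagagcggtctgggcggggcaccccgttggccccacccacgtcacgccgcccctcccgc
*Slc34a2* (chr5:53049103-53049352, plus strand): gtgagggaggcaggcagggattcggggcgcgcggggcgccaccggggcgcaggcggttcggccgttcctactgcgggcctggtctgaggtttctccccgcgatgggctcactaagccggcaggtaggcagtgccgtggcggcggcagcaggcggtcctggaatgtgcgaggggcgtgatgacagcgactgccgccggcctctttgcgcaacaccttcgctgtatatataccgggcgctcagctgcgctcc
The *Sftpa1* window held CTCAAG 1 time, ending 161 bases before the start, and the *Sftpb* window held it 2 times, ending 95 and 10 bases before the start. Both windows held TATAA at bases 30 to 26 before the start. Neither word occurred in the windows of *Lpcat1*, *Slc34a2*, *Abca3*, *Lamp3* or *Etv5*. The *Slc34a2* window held TATATATA near its 3′ end, and forms of the TATA box other than TATAA were not searched. Its RefSeq start lies inside the gene as GENCODE M21 places it, which begins at chr5:53038081. Of 32851 promoter windows of the same length, 13.3% held CTCAAG and 22.8% held TATAA. Among the 7 genes with a window, both words thus occurred only in *Sftpa1* and *Sftpb*. The GC content was 60.8% in the window of *Lpcat1*, 69.6% in that of *Slc34a2* and 58.4% in that of *Sftpb*.

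The libraries held 26759463 to 42914295 counted reads each, and 3 reads of a gene stood at 0.0699 to 0.112 CPM (reads of a gene per 1000000 counted reads). The targeted gene was lower in null lungs, with *Man1a2* at 137, 99.6 and 141 CPM in WT lungs 1, 2 and 3 against 64.4 and 66.4 CPM in null lungs 2 and 3 (log2 fold change −0.95 ± 0.16 SE, edgeR adjusted p = 0.0043). It stood at 55.9 CPM in null lung 1. Null lung 1 stood apart from the other 5 lungs, with which its correlation over genes was 0.787 to 0.815. Its alveolar type 1 markers summed to 0.111 times the WT lung mean, with 9 of 10 under the lowest WT lung, and its heart muscle markers to 47.0 times, with 8 of 8 above the highest. Skeletal muscle markers were 444 times and squamous and oesophagus markers 639 times the WT lung mean, with all 10 and all 7 genes above the highest WT lung. *Nppa*, an atrial hormone, stood there at 7819 CPM against 1.08 to 4.21 CPM in WT lungs. The library labelled null lung 1 was therefore shown apart, and genotype was compared between WT lungs 1 to 3 and null lungs 2 and 3, with a fit of all 6 beside it.

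The 10 genes took 3.40%, 3.03% and 3.01% of all counted reads in WT lungs 1, 2 and 3, and 3.29% and 2.69% in null lungs 2 and 3. In null lung 1 they took 0.0187%, and in the 6 livers 0.00804% to 0.0143%. The null lungs 2 and 3 thus lay on either side of WT lungs 2 and 3, and the livers and null lung 1 lay far below. On a scale of CPM per kilobase of merged exon (RPKM), *Sftpc* had the highest level in WT lung, at 17028 ± 2253 (SD, n = 3). *Sftpb* followed at 1500 ± 47.4 RPKM, then *Sftpa1* at 731 ± 24.3 and *Slc34a2* at 717 ± 42.8 RPKM, whose ranges overlapped. Below them came *Sftpd* (486 ± 41.3 RPKM), *Napsa* (280 ± 37.6), *Lamp3* (213 ± 11.1), *Lpcat1* (102 ± 7.71), *Abca3* (66.7 ± 8.28) and *Etv5* (46.5 ± 5.65), with no overlap between neighbours. The order of the mean levels was the same in null lungs 2 and 3, where *Sftpa1* (1020 and 1023 RPKM) stood clear of *Slc34a2* (526 and 591 RPKM).

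**Figure D1:**
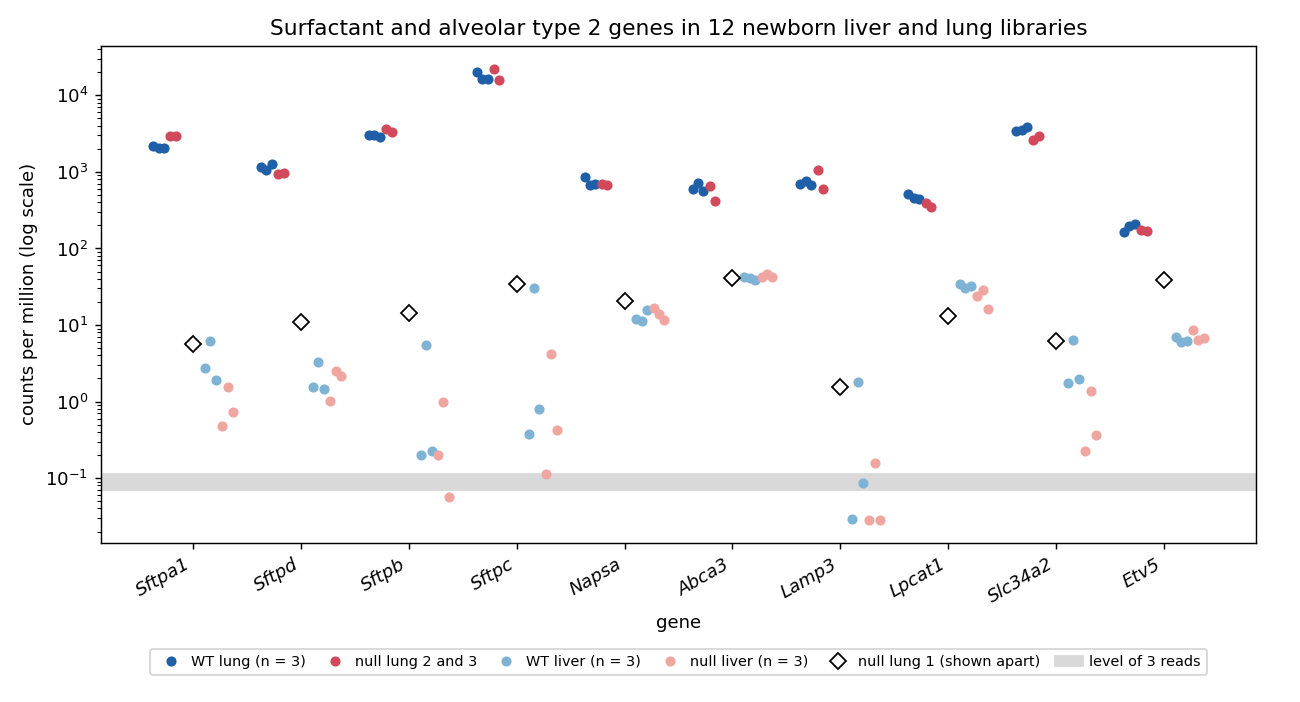
Level of each gene in every library, in CPM on a log scale. WT lungs (dark blue) and null lungs 2 and 3 (red) lie above 160 CPM for all 10 genes, livers (pale) and null lung 1 (open diamonds) lie below 50 CPM, and the grey band is the level that 3 reads give.

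Null lungs 2 and 3 differed from WT lungs in 3 of the 10 genes, by less than 1.5-fold in each. *Sftpa1* rose, and *Slc34a2* and *Lpcat1* fell. The other 7 genes did not pass the test, which was edgeR's quasi-likelihood test with an adjusted p-value under 0.05 over all 15885 genes tested and a change of at least 1.2-fold. By that rule 37.0% of all genes tested were called, 18.0% as higher and 19.0% as lower in null. The share of the 10 genes that was called was thus near the background, with 1 higher and 2 lower. Their median log2 fold change was −0.14 against −0.01 over all genes tested, and the median size of their log2 fold changes, 0.24, was below the 0.41 of all genes tested. In 5 of the 10 genes the 3 WT and 2 null values did not overlap, as was so in 61.8% of all genes tested. A permutation test of 3 libraries against 2 can give no p-value below 0.1, which *Sftpa1*, *Sftpb*, *Lpcat1* and *Slc34a2* reached (exact two-sided p = 0.1). In whole tissue, fewer cells of a type and less RNA per cell cannot be told apart.

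*Sftpa1*, which encodes the collectin SP-A, stood at 2164, 2026 and 2080 CPM in WT lungs 1, 2 and 3 and at 2917 and 2926 CPM in null lungs 2 and 3. Both null values were above all WT values and within 1% of each other. The rise was 1.40-fold (95% interval 1.21 to 1.61, log2 fold change 0.48 ± 0.09 SE, adjusted p = 0.0055 by edgeR). With all 4 groups in 1 fit it was not called (log2 fold change 0.50, edgeR adjusted p = 0.444). It was called without each library in turn (adjusted p = 0.0102 to 0.037).

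*Sftpd*, the gene of the second collectin, SP-D, stood at 1173, 1076 and 1275 CPM in WT lungs and at 946 and 958 CPM in null lungs 2 and 3. Both null values were below all WT values, but the difference did not pass the test (log2 fold change −0.30 ± 0.11 SE, edgeR adjusted p = 0.0569). It passed with DESeq2 (adjusted p = 0.0495) and with total counts as the scaling (log2 fold change −0.45, adjusted p = 0.0118). These neighbouring genes of chromosome 14 therefore had values of opposite sign. Their ratio within a library, into which no scaling enters, was 1.84, 1.88 and 1.63 reads of *Sftpa1* per read of *Sftpd* in WT lungs and 3.08 and 3.05 in null lungs 2 and 3. The ratio was higher in both null lungs than in all WT lungs.

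*Sftpb*, whose product SP-B is required for lamellar bodies and for breathing at birth, stood at 3006, 3008 and 2845 CPM in WT lungs and at 3634 and 3326 CPM in null lungs 2 and 3. The genotypes did not overlap, but the change of 1.18-fold did not pass the test (log2 fold change 0.24 ± 0.09 SE, edgeR adjusted p = 0.0757). It was called only where trends on GC content and gene length were removed (log2 fold change 0.37, adjusted p = 0.0141), among the alternatives run, and DESeq2 gave an adjusted p of 0.0408 at a change under 1.2-fold.

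*Sftpc*, the gene of SP-C and the most abundant of the 10, stood at 20294, 16362 and 16165 CPM in WT lungs and at 22485 and 15749 CPM in null lungs 2 and 3. The 2 null values enclosed all WT values, and null lung 2 was 1.43 times null lung 3. The log2 fold change was 0.12 ± 0.17 SE, with a 95% interval of −0.27 to 0.51 and an edgeR adjusted p of 0.606. *Napsa*, an aspartic protease that cleaves the SP-B precursor, stood at 861, 676 and 701 CPM in WT lungs and at 696 and 680 CPM in null lungs 2 and 3. Both null values lay inside the WT range (log2 fold change −0.12, 95% interval −0.41 to 0.18, edgeR adjusted p = 0.498).

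Of the 10 genes, those of the lamellar body differed most between the 2 null lungs. *Abca3*, the lipid transporter of the lamellar body membrane, stood at 604, 712 and 561 CPM in WT lungs and at 662 and 424 CPM in null lungs 2 and 3. *Lamp3*, a glycoprotein of the same membrane, stood at 701, 756 and 685 CPM in WT lungs and at 1073 and 608 CPM in null lungs 2 and 3. Null lung 2 was 1.56 times null lung 3 for *Abca3* and 1.76 times for *Lamp3*, and null lung 3 lay below all WT lungs for both. Neither gene passed the test (*Abca3* log2 fold change −0.20, 95% interval −0.66 to 0.25, adjusted p = 0.439; *Lamp3* 0.24, −0.26 to 0.73, adjusted p = 0.415, both by edgeR). Without null lung 2, *Abca3* was called lower (−0.56, adjusted p = 0.036) and *Lamp3* was −0.23. Without null lung 3, *Lamp3* was called higher (0.61, adjusted p = 0.0106) and *Abca3* was 0.10. Their ratio within a library was 1.16, 1.06 and 1.22 reads of *Lamp3* per read of *Abca3* in WT lungs and 1.62 and 1.43 in null lungs 2 and 3, higher in both null lungs.

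*Lpcat1*, an acyltransferase that makes the disaturated phosphatidylcholine of surfactant, stood at 512, 451 and 450 CPM in WT lungs and at 389 and 349 CPM in null lungs 2 and 3. Both null values were below all WT values, and the fall passed the test (0.784-fold, 95% interval 0.656 to 0.936, log2 fold change −0.35 ± 0.11 SE, edgeR adjusted p = 0.0404). The call was lost without WT lung 1, WT lung 2, WT lung 3 or null lung 3 (adjusted p = 0.0793 to 0.17) with trends on GC content and length removed (log2 fold change −0.26, adjusted p = 0.103), with DESeq2's size factors (adjusted p = 0.0539) and with all 4 groups in 1 fit (adjusted p = 0.154).

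*Slc34a2* encodes a sodium-phosphate cotransporter of the apical membrane that takes up phosphate freed from surfactant phospholipid. It stood at 3385, 3587 and 3814 CPM in WT lungs and at 2639 and 2964 CPM in null lungs 2 and 3. Both null values were below all WT values, and the fall passed the test (0.779-fold, 95% interval 0.661 to 0.918, log2 fold change −0.36 ± 0.10 SE, edgeR adjusted p = 0.0281). With all 4 groups in 1 fit it was not called (log2 fold change −0.34, edgeR adjusted p = 0.708). The call was lost without WT lung 2, WT lung 3 or null lung 2 (adjusted p = 0.0859 to 0.119). Reads of *Sftpa1* per read of *Slc34a2* were 0.639, 0.565 and 0.546 in WT lungs and 1.11 and 0.987 in null lungs 2 and 3. Reads of *Sftpb* per read of *Slc34a2* were 0.888, 0.839 and 0.746 in WT lungs and 1.38 and 1.12 in null lungs, so both ratios were higher in both null lungs. Reads of *Sftpc* per read of *Sftpb* overlapped, at 6.75, 5.44 and 5.68 in WT lungs and 6.19 and 4.74 in null lungs 2 and 3. The share of all gene pairs whose ratios do not overlap was not computed, so these ratios have no background.

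*Etv5*, an ETS transcription factor induced by FGF signalling that maintains type 2 cells, stood at 166, 195 and 212 CPM in WT lungs and at 174 and 168 CPM in null lungs 2 and 3. Both null values lay inside the WT range (log2 fold change −0.15, 95% interval −0.44 to 0.13, edgeR adjusted p = 0.355).

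**Figure D2:**
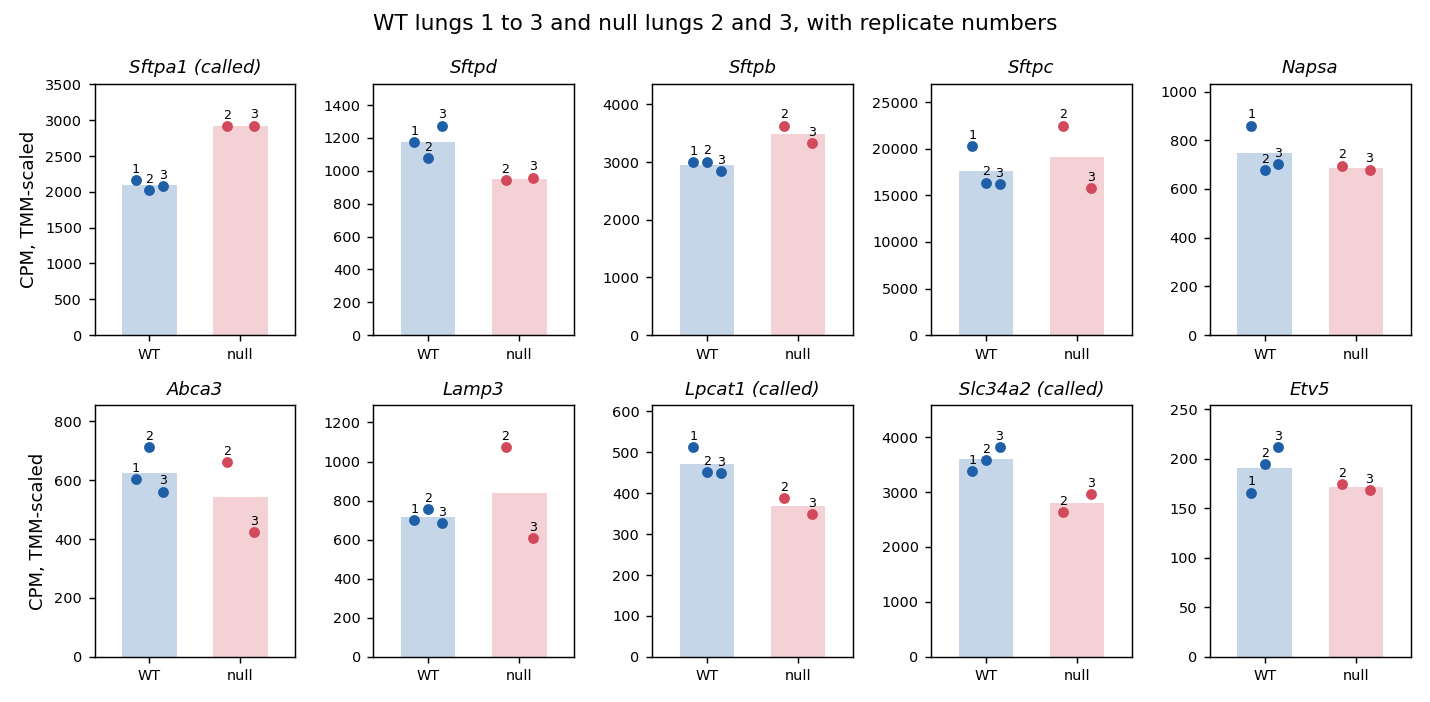
Levels in WT lungs 1 to 3 (blue) and null lungs 2 and 3 (red), in TMM-scaled CPM with axes from 0. Points are libraries with their replicate numbers and bars are group means. *Sftpa1* is higher and *Slc34a2* and *Lpcat1* are lower in both null lungs, while the 2 null values of *Sftpc* and *Lamp3* lie on either side of the WT values.

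Inclusion of null lung 1 changed each of these values. With all 6 lung libraries, 0 of the 10 genes were called by edgeR, 0 had an unadjusted p under 0.05, and their log2 fold changes ran from −0.94 in *Slc34a2* to −0.10 in *Sftpa1*. Only 51 of 15591 genes were called in that fit, against 5881 of 15885 without null lung 1. Of the 15591 genes, 3898 had an unadjusted p under 0.05 by edgeR. The direction turned in *Sftpa1*, *Sftpb*, *Sftpc* and *Lamp3*. With total counts as the scaling the median of all genes moved to −0.16, 1878 genes were called higher and 4245 lower in place of 2860 and 3021, and *Sftpa1* remained called at a log2 fold change of 0.33.

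**Figure D3:**
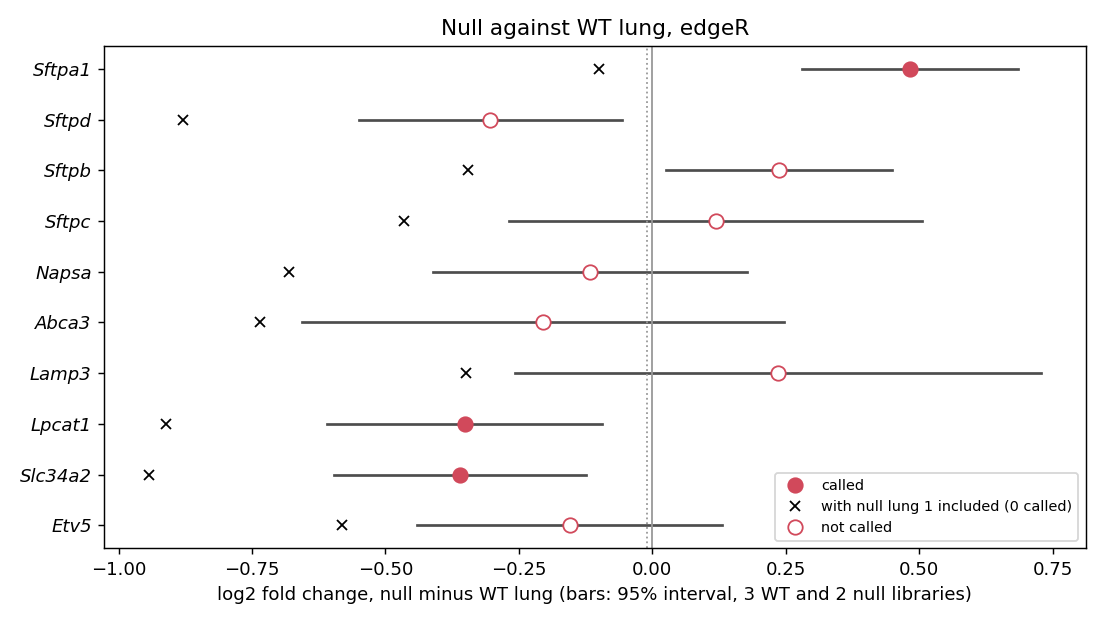
Log2 fold change of each gene between null lungs 2 and 3 and WT lungs, with its 95% interval. Filled points were called, the dotted line is the median of all genes tested, and crosses give the values with null lung 1 included, which lie below 0 for all 10 genes and at −0.10 for *Sftpa1*.

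Larger fold changes were found among other genes of the surfactant pathway. Of 74 further genes on 5 lists, all tested, 23 were called higher and 10 lower in null lungs 2 and 3, or 44.6% against the 37.0% of all genes. Among 20 genes of surfactant lipid synthesis and lamellar bodies, 7 were called higher, 3 lower and 10 were not called, with a median log2 fold change of 0.10. With total counts as the scaling the split was 5 higher and 7 lower. *Lpin1*, a phosphatidate phosphatase on the route to phosphatidylcholine, stood at 35.6 ± 4.36 CPM (SD, n = 3) in WT lungs and at 96.3 and 144 CPM in null lungs 2 and 3 (3.38-fold, edgeR adjusted p = 0.000938). *Scd1*, the stearoyl-CoA desaturase, rose from 431 ± 54.3 CPM to 1844 and 1061 CPM (3.37-fold, edgeR adjusted p = 0.00161). *Srebf1*, the transcription factor of fatty acid synthesis, rose from 103 ± 6.94 CPM to 235.2 and 235.4 CPM (2.28-fold, edgeR adjusted p = 0.000588). The higher levels in null were not particular to lung. *Lpin1* stood at 239, 46.9 and 101 CPM in WT livers and at 489, 428 and 692 CPM in null livers. *Scd1* stood there at 67.2, 36.3 and 33.4 CPM and at 162, 246 and 103 CPM. *Srebf1* stood there at 43.8, 35.8 and 48.9 CPM and at 99.5, 115 and 79.6 CPM.

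The lipid genes that fell most among those called were *Plin2*, a coat protein of lipid droplets, *Agpat2*, an acyltransferase, and *Scap*, the escort protein of SREBP. In liver, *Plin2* was also lower, at 548, 677 and 704 CPM in WT and 144, 218 and 271 CPM in null. *Agpat2* was lower there too, at 166, 212 and 227 CPM against 61.5, 104 and 58.2 CPM. *Scap* overlapped between genotypes in liver, at 95.7, 73.4 and 108 CPM against 126, 115 and 87.8 CPM. *Plin2* stood at 175 ± 15.4 CPM (SD, n = 3) in WT lungs and at 126 and 92.1 CPM in null lungs 2 and 3 (log2 fold change −0.68, edgeR adjusted p = 0.0125). *Agpat2* stood at 61.5 ± 5.47 CPM and at 41.8 and 43.4 CPM (log2 fold change −0.53, edgeR adjusted p = 0.0106). *Scap* stood at 57.3 ± 1.2 CPM in WT lungs and at 45.5 and 45.6 CPM in null lungs 2 and 3 (log2 fold change −0.33, edgeR adjusted p = 0.0308). All 6 of these lipid genes had null values outside the WT range, and the call of *Scap* was lost on leaving out any 1 of the 5 libraries (adjusted p = 0.0524 to 0.101).

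Of 10 genes of surfactant processing, secretion and clearance, 2 were called higher, 1 lower and 7 were not called, with a median log2 fold change of 0.07. With total counts as the scaling the split was 1 higher and 1 lower. *Prdx6*, a peroxiredoxin with phospholipase activity, stood at 526 ± 37.2 CPM (SD, n = 3) in WT lungs and at 614 and 748 CPM in null lungs 2 and 3 (log2 fold change 0.37, edgeR adjusted p = 0.0454). *Syt7*, a calcium sensor of lysosome-related exocytosis, stood at 30.8 ± 3.76 CPM and at 23.7 and 18.4 CPM (log2 fold change −0.54, edgeR adjusted p = 0.0332). Neither gene overlapped between genotypes, and each lost its call on leaving out single libraries, *Prdx6* without WT lung 1, 2 or 3 or null lung 3 (adjusted p up to 0.182) and *Syt7* without WT lung 2 or 3 or null lung 3 (up to 0.135).

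Of 17 other markers of alveolar type 2 cells, 5 were called higher, 3 lower and 9 were not called, with a median log2 fold change of 0.15. With total counts as the scaling the split was 5 higher and 6 lower. *Hc*, which encodes complement C5, stood at 294 ± 19.2 CPM (SD, n = 3) in WT lungs and at 840 and 562 CPM in null lungs 2 and 3 (2.38-fold, edgeR adjusted p = 0.0019). *Lyz2*, a lysozyme gene that macrophages also express, rose from 1354 ± 227 CPM to 2716 and 2086 CPM (1.77-fold, edgeR adjusted p = 0.00788). *Acoxl* rose from 13.4 ± 3.10 CPM to 26.1 and 20.2 CPM (1.72-fold, edgeR adjusted p = 0.0236), a call lost without WT lung 2, WT lung 3 or null lung 2 (adjusted p up to 0.105). The macrophage markers beside *Lyz2* summed to 217 to 267 CPM in WT lungs and 187 to 219 CPM in null lungs 2 and 3, with 2 of 8 called higher and 0 lower with TMM factors and 1 higher and 2 lower with total counts, the scaling of these sums. Their part in the value of *Lyz2* was not tested. In liver, *Hc* was also higher in null, at 468, 470 and 530 CPM in WT and 610, 648 and 588 CPM in null. *Lyz2* and *Acoxl* overlapped between genotypes there.

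*Il33*, an alarmin cytokine, fell furthest among these markers, from 51.4, 74.4 and 74.1 CPM in WT lungs to 13.0 and 9.08 CPM in null lungs 2 and 3 (log2 fold change −2.59, edgeR adjusted p = 0.000654). *Cldn18*, the tight junction claudin of alveolar epithelium, stood at 902, 1136 and 1111 CPM in WT lungs and at 424 and 420 CPM in null lungs 2 and 3 (log2 fold change −1.31, edgeR adjusted p = 0.000829). *Lgi3* stood at 450 ± 22.3 CPM (SD, n = 3) and at 346 and 309 CPM (log2 fold change −0.46, edgeR adjusted p = 0.0134), a call lost without WT lung 2 or null lung 3 (adjusted p up to 0.0586). *Cldn18* is also a gene of alveolar type 1 cells, the flat cells of gas exchange, and of the 10 type 1 markers 0 were called higher and 6 lower, with a median log2 fold change of −0.74. The type 1 markers summed to 7549 to 7919 CPM in WT lungs and to 4511 to 5542 CPM in null lungs 2 and 3. Their part in the fall of *Cldn18* was not tested. In liver, *Il33* was also lower in null, at 3.44, 3.13 and 2.98 CPM in WT and 2.55, 1.33 and 1.24 CPM in null. *Cldn18* and *Lgi3* overlapped between genotypes there.

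Of 17 transcription factors of the alveolar type 2 programme, 6 were called higher, 2 lower and 9 were not called, with a median log2 fold change of 0.30, and with total counts as the scaling 4 were called higher and 3 lower. *Cebpd*, induced by glucocorticoids in lung epithelium, stood at 118 ± 5.60 CPM (SD, n = 3) in WT lungs and at 234 and 267 CPM in null lungs 2 and 3 (2.12-fold, edgeR adjusted p = 0.000745). *Elf5* rose from 104 ± 11.2 CPM to 198 and 230 CPM (2.05-fold, edgeR adjusted p = 0.00135). *Cebpa*, a factor of late type 2 differentiation, rose from 192 ± 21.2 CPM to 376 and 363 CPM (1.93-fold, edgeR adjusted p = 0.00155). *Grhl2*, an epithelial factor of cell junctions, fell from 34.1 ± 5.22 CPM to 17.4 and 18.2 CPM (log2 fold change −0.94, edgeR adjusted p = 0.00409), and *Foxa2* from 69.8 ± 6.85 CPM to 40.7 and 46.5 CPM (log2 fold change −0.68, edgeR adjusted p = 0.00594). These 5 calls held without each library in turn. In liver, *Cebpd* was also higher in null, at 29.6, 10.7 and 33.1 CPM in WT and 36.0, 46.0 and 46.4 CPM in null. *Grhl2* was lower there, at 0.347, 0.186 and 0.170 CPM against 0.0849, 0.0532 and 0.113 CPM, near the level of 3 reads. *Cebpa*, *Foxa2* and *Elf5* overlapped between genotypes in liver.

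Of 10 genes of the FGF and ERK response, to which *Etv5* belongs, 3 were called higher, 1 lower and 6 were not called, with a median log2 fold change of 0.08, and with total counts as the scaling the split was 2 and 2. *Dusp4*, a phosphatase that switches off MAP kinases, stood at 27.6 ± 1.33 CPM (SD, n = 3) in WT lungs and at 60.8 and 47.7 CPM in null lungs 2 and 3 (1.97-fold, edgeR adjusted p = 0.00194). *Spred1* and *Spred2*, inhibitors of RAS signalling, stood at 139 ± 24.0 and 29.0 ± 4.38 CPM in WT lungs, at 238 and 208 CPM and at 51.9 and 38.8 CPM in null lungs 2 and 3 (edgeR adjusted p = 0.0128 and 0.0227). *Spry4*, an inhibitor of FGF receptor signalling, fell from 39.9 ± 7.41 CPM to 26.6 and 28.4 CPM (log2 fold change −0.54, edgeR adjusted p = 0.0386). In liver, *Spred1* stood at 26.3, 27.7 and 30.4 CPM in WT and at 41.2, 45.4 and 58.5 CPM in null. *Spred2* stood there at 11.3, 9.49 and 10.9 CPM and at 17.4, 15.0 and 20.4 CPM. *Dusp4* and *Spry4* overlapped between genotypes in liver. The call of *Spred1* was lost without null lung 2 (adjusted p = 0.0516), that of *Spred2* without WT lung 1, WT lung 3 or null lung 2 (up to 0.102) and that of *Spry4* without WT lung 2, WT lung 3, null lung 2 or null lung 3 (up to 0.12).

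Markers of other cells were followed in the same lungs. Epithelial markers summed to 1888 to 2214 CPM in WT lungs and 2364 to 2547 CPM in null lungs 2 and 3. Of these 10 genes, 5 were called higher and 0 lower with TMM factors, and 4 higher and 1 lower with total counts. Heart muscle markers summed to 379 to 604 CPM in WT and 707 to 867 CPM in null lungs 2 and 3. Of these 8 genes, 6 were called higher with TMM factors and 4 with total counts. Skeletal muscle markers summed to 27.6 to 36.2 and 58.1 to 70.6 CPM, with 5 of 9 tested called higher. Endothelial markers summed to 2583 to 3156 and 2610 to 3084 CPM, with 2 of 9 called higher and 2 lower. Airway secretory markers summed to 4128 to 5322 and 4227 to 6414 CPM (3 of 7 called higher, 1 lower), multiciliated markers to 76.2 to 146.7 and 135.8 to 136.4 CPM (3 of 6 higher with TMM factors and 1 with total counts, 0 lower with either) and brown fat markers to 29.9 to 37.8 and 35.0 to 66.8 CPM (3 of 4 tested higher). Liver cell markers summed to 746 to 1552 CPM in WT and 1574 to 2108 CPM in null lungs 2 and 3, with 1 of 10 called higher. *Trf* made up most of this sum, at 895, 671 and 771 TMM-scaled CPM in WT and 1646 and 1431 CPM in null lungs 2 and 3. *Alb* overlapped between genotypes (392, 23.1 and 35.9 against 405 and 145 CPM), and so did the other markers of this list. The part of these cells in the values above was not tested.

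**Figure D4:**
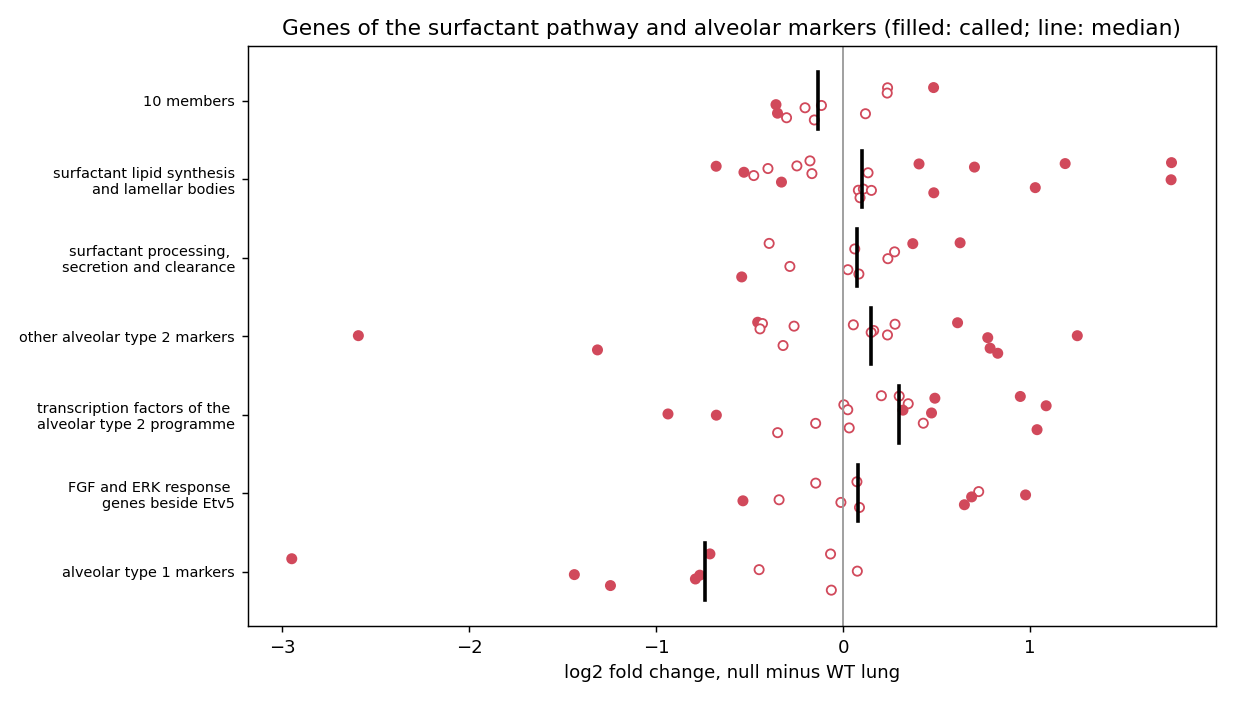
Log2 fold change between null lungs 2 and 3 and WT lungs of the 10 genes and of 6 lists, 1 point per gene, filled where called, with the median as a line. The 10 genes span −0.36 to 0.48, the type 1 markers have a median of −0.74, and *Lpin1* and *Scd1* stand at the right end at 1.76 and 1.75.

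Liver served as the background tissue. All 10 genes were higher in WT lung than in WT liver, by log2 fold changes of 3.14 in *Lpcat1* to 9.90 in *Sftpc* (edgeR adjusted p = 6.04e-09 to 0.000667), where 39.8% of 15635 genes tested were called higher in lung. Of the 10 genes, 4 stood above 1% of the WT lung level in all 6 livers. *Abca3* stood at 5.99% to 7.05% of the mean WT lung level in the 6 livers, *Lpcat1* at 3.30% to 7.03%, *Etv5* at 2.99% to 4.27% and *Napsa* at 1.47% to 2.16%. The other 6 were at most 0.287% of WT lung in any liver. In reads, *Lamp3* had 1, 58 and 3 in WT livers 1, 2 and 3 and 1, 6 and 1 in null livers, and *Sftpb* had 7, 179 and 8 and then 7, 37 and 2.

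WT liver 2 held the most reads of all 6 livers for *Sftpa1*, *Sftpd*, *Sftpb*, *Sftpc*, *Lamp3* and *Slc34a2*. *Sftpc* stood there at 0.167% of WT lung, *Slc34a2* at 0.17%, *Sftpb* at 0.18% and *Lamp3* at 0.241%. Of 7 lung genes outside the 10, each also highest there among the livers, *Cldn18* stood at 0.0934% of WT lung, *Nkx2-1* at 0.168%, *Scgb1a1* at 0.184%, *Cxcl15* at 0.19%, *Lyz1* at 0.278%, *Scgb3a2* at 0.356% and *Ager* at 0.369%. *Ager* was at 0.193% or more in every liver. In null liver 2, *Sftpc* stood at 0.023% and *Cxcl15* at 0.0281%. Whether the reads of these genes in WT liver 2 came from lung was not tested. Without WT liver 2 the log2 fold change of lung over liver was 14.18 in *Sftpc* in place of 9.90, 13.04 in *Sftpb* in place of 9.77 and 12.85 in *Lamp3* in place of 9.42. *Sftpa1*, *Sftpd* and *Slc34a2* differed from these in WT livers 1 and 3, where they stood at 0.0463% to 0.127% of WT lung against 0.00205% to 0.0114% for *Sftpc*, *Sftpb* and *Lamp3*.

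Null liver 1 stood apart from the other 5 livers in its markers of other tissues, with skeletal muscle markers at 6290 CPM in sum against 5.31 to 8.80 CPM, cartilage markers at 470.8 against 1.61 to 4.44 CPM and heart muscle markers at 403 against 2.55 to 5.71 CPM. Between null and WT liver, 8 of the 10 genes passed the filter on low counts and 1 was called, where 26.9% of 14343 genes tested were called. *Sftpa1* stood at 2.75, 6.26 and 1.93 CPM in WT livers and at 0.481, 1.54 and 0.735 CPM in null livers, so that all null values were below all WT values (log2 fold change −1.87 ± 0.57 SE, edgeR adjusted p = 0.0473). Without WT liver 2 it was not called (−1.18, adjusted p = 0.151), and the same held without WT liver 1, WT liver 3, null liver 1 or null liver 3 (adjusted p = 0.0554 to 0.112). *Slc34a2* stood at 1.73, 6.39 and 1.98 CPM in WT livers and at 0.226, 1.36 and 0.367 CPM in null livers, again with all null values below all WT values (log2 fold change −2.27 ± 0.76 SE). It did not pass by edgeR (adjusted p = 0.0616), was called by DESeq2 (adjusted p = 0.00645) and was −1.36 without WT liver 2 (adjusted p = 0.215 by edgeR). *Sftpc* (−2.69, adjusted p = 0.27) and *Sftpd* (−0.01, adjusted p = 0.988) were not called by edgeR, and without WT liver 2 they were 1.57 and 0.51. Without null liver 1, 9 of the 10 genes were tested and 0 were called by edgeR, against 3451 of all 14501 genes tested. An unadjusted p under 0.05 was given by 3 of the 9, against 5618 of the 14501. *Sftpa1* was −1.54 in that fit (edgeR adjusted p = 0.0781). The part of WT liver 2's reads of lung genes and of null liver 1's other tissues in these values was not tested. *Abca3* (log2 fold change 0.23, 95% interval 0.00 to 0.45, adjusted p = 0.115) and *Lpcat1* (−0.38, −0.74 to −0.01, adjusted p = 0.11) did not pass, nor did *Napsa* (0.25, adjusted p = 0.265) or *Etv5* (0.32, adjusted p = 0.182, all by edgeR). *Sftpb* and *Lamp3* were not tested in liver.

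The effect of genotype in lung less that in liver was called in 5.0% of 16257 genes tested and in 0 of the 10 genes by edgeR. An unadjusted p under 0.05 was given by 3 of the 10 genes in edgeR, against 3524 of all 16257. In DESeq2 it was given by 2 of the 10, against 3651 of all genes. There 1 gene of the 10, *Sftpa1*, was called, against 1705 of all 14919 with an adjusted p. For *Sftpa1* the difference was 2.37 ± 0.66 SE on the log2 scale (edgeR adjusted p = 0.0677), with null above WT in lung and below it in liver, and it was 1.66 without WT liver 2 (adjusted p = 0.116) and 2.03 without null liver 1 (adjusted p = 0.0836). For *Lpcat1* it was 0.05, with a 95% interval of −0.44 to 0.54, and for *Etv5* it was −0.45 ± 0.18 SE (edgeR adjusted p = 0.18).

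Null lung 1 had these genes at low levels, none at the level of 3 reads. *Sftpc* stood there at 34.8 CPM, *Sftpb* at 14.2, *Sftpd* at 10.9, *Slc34a2* at 6.20, *Sftpa1* at 5.61 and *Lamp3* at 1.53 CPM. The mean WT lung level was 112 times that of null lung 1 for *Sftpd*, 216 times for *Sftpb*, 389 times for *Sftpa1*, 486 times for *Lamp3*, 527 times for *Sftpc* and 604 times for *Slc34a2*. As a share of WT lung, *Slc34a2* (0.165%), *Sftpc* (0.19%) and *Lamp3* (0.206%) in null lung 1 were close to their shares in WT liver 2, while *Sftpd* (0.894%) and *Sftpb* (0.462%) were 3.36 and 2.57 times the highest liver. *Abca3* stood at 41.4 CPM, *Napsa* at 20.6 and *Lpcat1* at 13.0 CPM, of which *Abca3* was within and *Lpcat1* below the range of the livers. *Etv5* was the exception at 38.9 CPM, 19.5% of WT lung and 4.58 times the highest liver. Secretoglobin genes of airway club cells stood higher in that library, *Scgb3a2* at 341% and *Scgb1a1* at 10.4% of the WT lung mean, and *Nkx2-1*, the lung and thyroid transcription factor, stood at 7.42%.

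**Figure D5:**
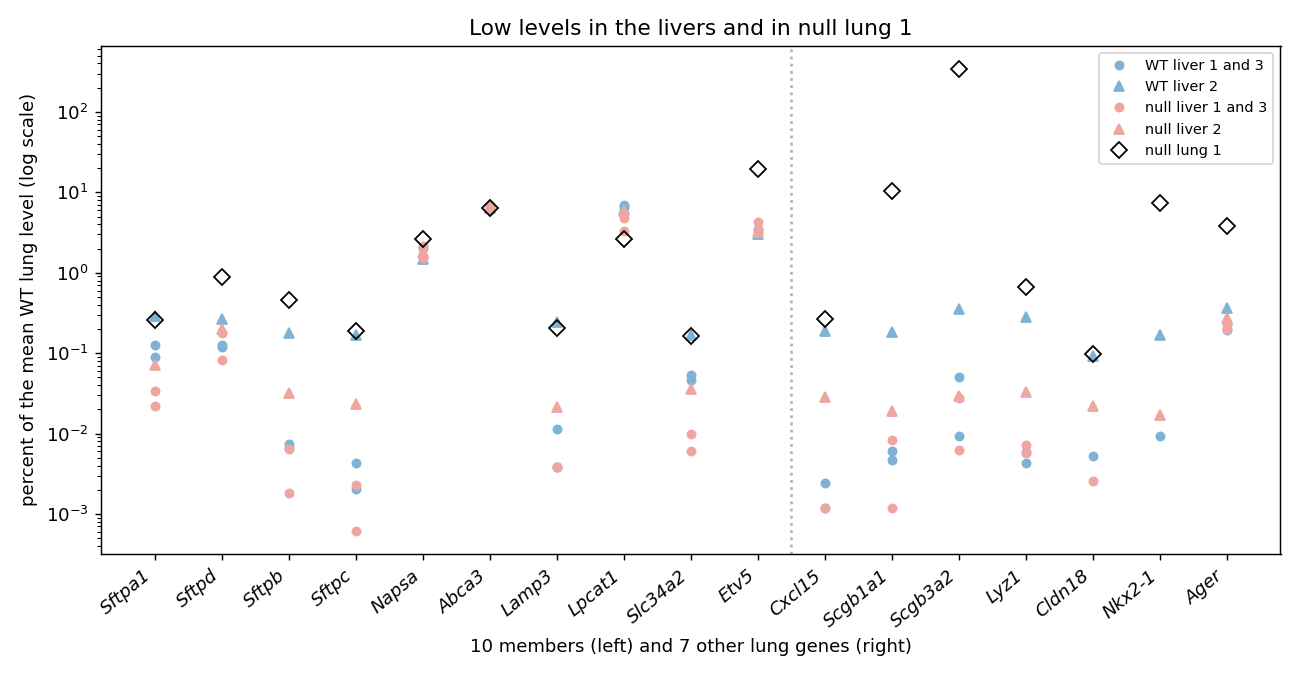
Levels in the 6 livers and in null lung 1 as a percent of the mean WT lung level, on a log scale, for the 10 genes and 7 other lung genes; values of 0 are not drawn. WT liver 2 (pale blue triangles) lies near 0.17% for *Sftpc*, *Slc34a2* and *Nkx2-1*, and null lung 1 (open diamonds) lies at 19.5% for *Etv5* and 341% for *Scgb3a2*.

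The genes most like the 10 were sought among 13878 other genes with a mean of at least 1 CPM in WT lung, by correlation over the 12 libraries with the mean standardised profile of the 10. The highest were *Sfta2* (r = 0.998), *Retnla* (0.998), *Chia1* (0.997), *Cldn18* (0.996) and *Dram1* (0.996). These values describe mainly the step between WT lungs with null lungs 2 and 3 on one side and the other 7 libraries on the other, and are given as a description. Of the 5, *Cldn18* was called between null and WT lung and fell by 1.31 on the log2 scale, while *Sfta2* stood at a log2 fold change of 0.05 (edgeR adjusted p = 0.828), *Retnla* at 0.15 (0.745), *Chia1* at 0.15 (0.529) and *Dram1* at −0.26 (0.0752).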

How the data were processed

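Polyadenylated RNA of 3 WT and 3 null newborn livers and lungs was sequenced. The authors deposited raw read counts, whole numbers per gene symbol, 1 table per library, not normalized. The submitters' processing notes name FastQC, STAR 2.5.2a, DESeq2 and mm10. The counting program, annotation and strand setting are not given in the sources used here. Dates stood in place of 27 gene names, which were tested unnamed. Positions and lengths came from GENCODE M21 (98.3% of rows matched).

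Libraries were grouped by their labels. Counts were filtered with filterByExpr, scaled with TMM factors and tested with the quasi-likelihood test of edgeR 4.0.16 in R 4.3.3, with Benjamini-Hochberg adjustment over all genes tested. A gene was called where the adjusted p was under 0.05 and the levels differed 1.2-fold or more. Null lung 1 entered only alternative fits and the correlations over all 12 libraries. The SE was the log2 fold change divided by the root of its F statistic. CPM of WT lungs and null lungs 2 and 3 use TMM-scaled totals, other CPM, marker sums and all shares of WT lung use total counts, and permutations used log2(CPM + 0.5). The members, lists and tests were chosen with earlier results of these data known. Always named were *Man1a2* and the 10 genes, and from each of 5 pathway lists the 3 called genes that rose most and the 3 that fell most, of which 1 gene is not reported here; other genes were named to describe libraries, after their values had been seen. Alternatives were DESeq2 1.42.0, its size factors, total counts, 2 count filters, no minimum change, GC and length trends (lowess span 0.3), the 20 most abundant genes left out, other sets of libraries, a replicate block and each library left out.

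Nothing in the sources says whether libraries of a group came from separate litters, so p-values measure the spread between these samples. No library was a copy of another (lowest chi-square per gene 15.4). Replicate numbers come from the titles. Liver and lung libraries of one number deviated together in all 5 pairs (correlation 0.139 to 0.293). Libraries of unlike number were not compared, so these values cannot show whether the numbers pair the tissues. The main fits held no term for such a pairing. Between WT and null, which are separate pups, the correlations were −0.03 and 0.30 in lung and −0.04 to 0.15 in liver. The 0.30 was above all 5 tissue pairs. The numbers were not taken as pairing the genotypes. Tests were checked on simulated counts.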

Additional observations from a re-analysis of the deposited data

Results flagged for a closer look

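Null lung 1 entered tests of genotype only in the fits of all 6 lungs and of all 12 libraries. In that library, 5 of the 10 genes stood above every liver: *Etv5* at 38.9 CPM, *Sftpc* at 34.8 CPM, *Napsa* at 20.6 CPM, *Sftpb* at 14.2 CPM and *Sftpd* at 10.9 CPM. *Sftpc* was 1.13 times and *Napsa* 1.23 times the highest liver, and the others 2.57 to 4.58 times. There is 1 such library, so these levels have no replicate.

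*Sftpa1* was higher in both null lungs than in all WT lungs and lower in all 3 null livers than in all WT livers, a difference of 2.37 on the log2 scale that did not pass edgeR's test of the difference (adjusted p = 0.0677). Over the alternatives its adjusted p was 0.0385 to 0.718, and without WT liver 2 the difference was 1.66 (adjusted p = 0.116).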

How the results depend on the processing

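Between null and WT lung, 3 of the 10 genes and 5881 genes in all were called. Leaving out 1 library gave 1 to 3 of the 10 (1 without WT lung 2, *Sftpa1*, or without WT lung 3, *Sftpa1*) and 3457 to 5397 in all, the lowest without WT lung 3. All 6 lungs gave 0 and 51. All 4 groups in 1 fit gave 0 of the 10, against 4925 of all 16257 genes tested. In that fit 0 of the 10 had an unadjusted edgeR p under 0.05, against 6783 of all genes. The direction turned with all 6 lungs in *Sftpa1* (−0.10), *Sftpb* (−0.35), *Sftpc* (−0.47), *Lamp3* (−0.35) and *Prdx6* (−0.040), with total counts in *Sftpc* (−0.036) and with GC and length trends removed in *Napsa* (0.012). Leaving out 1 library gave −0.16 to 0.37 for *Sftpc*, −0.56 to 0.10 for *Abca3* and −0.23 to 0.61 for *Lamp3*. The cause was not tested. Each lone sample left in an arm was assumed to vary like the others.

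Between null and WT liver, 1 of the 10 and 3856 genes were called. DESeq2 gave 2 of the 10, a minimum of 1 count in all gave 0, and leaving out 1 library gave 0 to 3 (3 without null liver 2) and 1641 to 3451 genes. The range was −0.24 to 0.51 for *Sftpd* and −5.19 to 1.57 for *Sftpc*, the latter without WT liver 2. For the effect in lung less that in liver, 813 genes were called, 1705 by DESeq2, 60 with all 12 libraries and 301 to 855 on leaving out 1 library. *Sftpa1* was the 1 called of the 10 with DESeq2, with at least 10 counts in every library, or without null liver 2 (leaving out 1 library gave 0 to 1). Leaving out 1 library gave −0.86 to 4.12 for *Sftpb*, −1.47 to 5.33 for *Sftpc*, −0.26 to 4.49 for *Lamp3* and −0.10 to 0.23 for *Lpcat1*, which was −0.0059 with total counts and −0.53 with all 12 libraries. All calls of the 10 between WT lung and WT liver held where the gene was tested.

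With a replicate block, 2 of the 10 were called in lung (*Lpcat1* lost, edgeR adjusted p = 0.0824) and 3 in liver (*Sftpa1*, *Sftpc* and *Slc34a2*). In these comparisons the numbers were not taken as pairing the samples. With a block by number across the tissues, no call of the 10 changed. The log2 effect in lung less that in liver moved from 2.83 to 0.26 in *Sftpc* and from 2.42 to 1.16 in *Sftpb*. Changes under the 1.2-fold cut-off were not called by definition. With 3 against 2 libraries the intervals in lung were wide.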
